A study of Mus musculus with 2 samples.

Results

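Rspo3-expressing valve interstitial cells were selected from 2 droplet libraries of dissociated mouse mitral valve. A barcode was kept when it held at least 1000 UMIs (unique molecular identifiers, each marking 1 captured RNA molecule), at least 500 genes and at most 20% UMIs from mitochondrial genes. A kept barcode was taken as an interstitial cell when Dcn, Col1a1, Col1a2 and Col3a1 together made up at least 1% of its UMIs. A member was an interstitial cell with at least 3 Rspo3 UMIs and fewer than 6 UMIs of Bglap2, Nrgn and Sez6l together. This rule found 1863 members among 19253 barcodes, with 1070 of 9509 in the wild type library and 793 of 9744 in the Fbn1 C1039G/+ library. The comparison cells were interstitial cells without an Rspo3 UMI (Rspo3 = 0 cells), 3976 and 4935 in number.

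Both libraries came from C57BL/6J mice at 1 month of age, and the tissue of a genotype was pooled, from 5 wild type (Fbn1 +/+) and 3 Fbn1 C1039G/+ animals. The C1039G allele replaces a cysteine of fibrillin-1, which polymerises into the microfibrils around elastic fibres, and heterozygous mice are used as a model of Marfan syndrome. Each genotype had 1 library, so no difference between the genotypes has a replicate check, no p-value is given, and all intervals are 95% and cover counting error only, not mice, dissections or library preparation. Counts from the 3′ ends of transcripts do not separate the 2 Fbn1 alleles. The enzymes used for dissociation included collagenases and elastase, and recovery of cells in the digest cannot be told apart from their number in the valve.

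R-spondins are secreted proteins that strengthen Wnt signalling. They bind the receptors Lgr4, Lgr5 and Lgr6 and take the ubiquitin ligases Znrf3 and Rnf43 away from the Wnt receptors of the Frizzled family, which those ligases would otherwise remove from the cell surface. Rspo3 is made by stromal cells of many tissues and is needed for vascular development in the embryo. In heart valves, interstitial cells are the fibroblasts that build and maintain the collagen, elastin and proteoglycan layers of the leaflet.

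Member cells had a median of 9872 UMIs in the wild type and 9899 UMIs in the Fbn1 C1039G/+ library, close to the 10419 and 10191 UMIs of Rspo3 = 0 cells. Summed over all members, the levels below rest on 11922404 and 9679781 UMIs. The libraries shared 17 barcodes, none of them members. All 10 interstitial markers outside the rule were at 20 counts per 1000000 UMIs (CPM) or more in members and in Rspo3 = 0 cells of both libraries. They summed to 25999 and 28548 CPM in members against 28253 and 30538 CPM in Rspo3 = 0 cells. The rule itself asked for collagen and Dcn UMIs, so these levels are no check of the name. Markers of several other cell types were also present at lower summed levels. The 10 macrophage markers summed to 533 and 556 CPM in members against 839 and 564 CPM in Rspo3 = 0 cells, the 8 endothelial markers to 51.5 and 75.0 CPM against 81.9 and 125 CPM, and the 8 lymphocyte markers to 14.3 and 9.81 CPM against 6.78 and 3.82 CPM. Hemoglobin RNA was more abundant, at 1464 and 714 CPM in members against 909 and 514 CPM. The part of RNA from other cells in the levels below was not tested. Of 8 cardiomyocyte markers, 5 had no UMI in the members of either library. Doublet scores among the highest 751 and 777 of the libraries marked 11.7% of members in each library against 8.12% and 7.90% of Rspo3 = 0 cells.

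The first comparison was of how common these cells were. Members made up 14.2% (exact binomial interval 13.4 to 15.0) of interstitial cells in the wild type and 10.2% (9.54 to 10.9) in the Fbn1 C1039G/+ library, a difference of -3.95 percentage points (-4.99 to -2.92). A rule on raw UMIs depends on depth, so each cell was also thinned to 5000 UMIs, which left out 2.30% and 7.99% of interstitial cells as shallower. After thinning, members were 6.38% and 4.65%, a difference of -1.74 points (-2.48 to -0.994). Any Rspo3 UMI was seen in 47.4% and 36.5% of interstitial cells, or 34.6% and 26.3% after thinning. In macrophages, which should lack the gene, an Rspo3 UMI was found in 3.81% and 0.788% of cells at median depths of 8328 and 7444 UMIs, or 2.46% and 0.576% after thinning. That level was also higher in the wild type library, and its part in the difference of member shares was not tested. The share was lower in the Fbn1 C1039G/+ library among cells of both sexes, at 13.1% and 8.76% in cells with Xist RNA and at 15.1% and 12.1% in cells with Y-linked RNA and no Xist. Since RNA of both sexes was found in the pool of 3 Fbn1 C1039G/+ animals, 1 of the sexes there was a single animal.

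**Figure D1:**
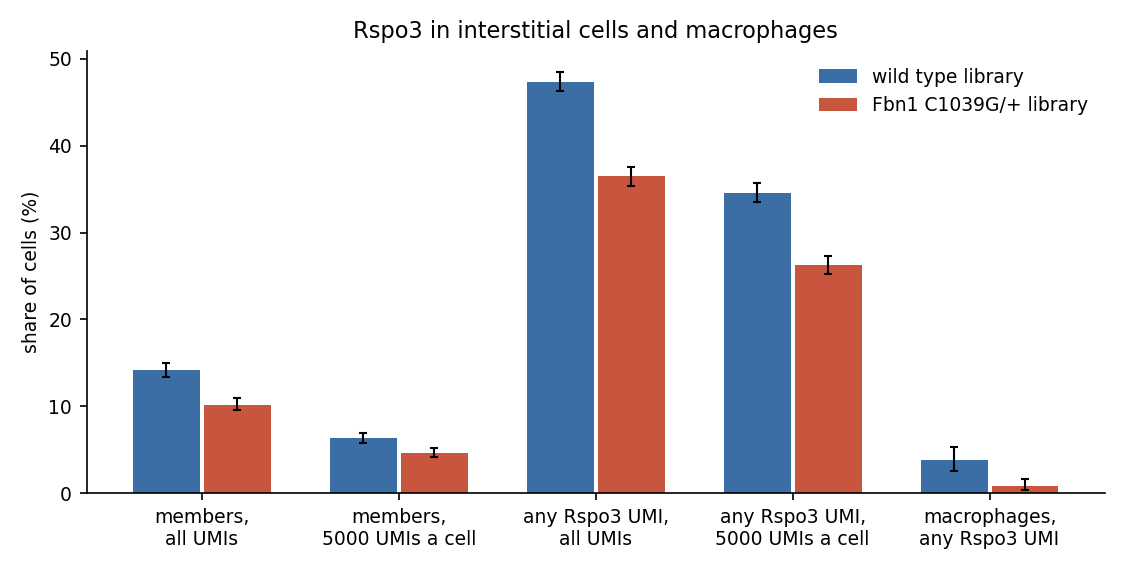
Bars give the share of cells (%) in the wild type and Fbn1 C1039G/+ libraries that were members or held any Rspo3 UMI, with all UMIs and after thinning to 5000 UMIs a cell, and whiskers are exact 95% binomial intervals. Members were 14.2% and 10.2% of interstitial cells, and macrophages with an Rspo3 UMI were 3.81% and 0.788%.

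The second comparison set members against Rspo3 = 0 cells within each library. Rspo3 itself stood at 429 and 383 CPM in members and at 0 in the other cells by selection. UMIs of all cells of a group were summed and scaled to CPM, and a gene was measured when it reached 20 CPM in either group and 50 UMIs over both. Calls of higher or lower required a difference of 1.5-fold or more and a counting interval that did not include 1. Of 6454 genes measured in both libraries, 120 (1.86%) were called higher in members in both and 165 (2.56%) lower in both. Within single libraries 161 of 6601 genes (2.44%) were called higher and 235 (3.56%) lower in the wild type, and 163 of 6666 (2.45%) and 211 (3.17%) in the Fbn1 C1039G/+ library. Because Rspo3 chose the cells, these ratios describe the members and test nothing. Of the genes measured in both, each of the 148 called higher in the wild type was also above 1-fold in the Fbn1 C1039G/+ library, and 214 of 215 called lower were also below 1-fold there. Over all 6454 genes the median log2 ratio in the Fbn1 C1039G/+ library was 0.00497, and 1 gene had opposite calls in the 2 libraries.

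**Figure D2:**
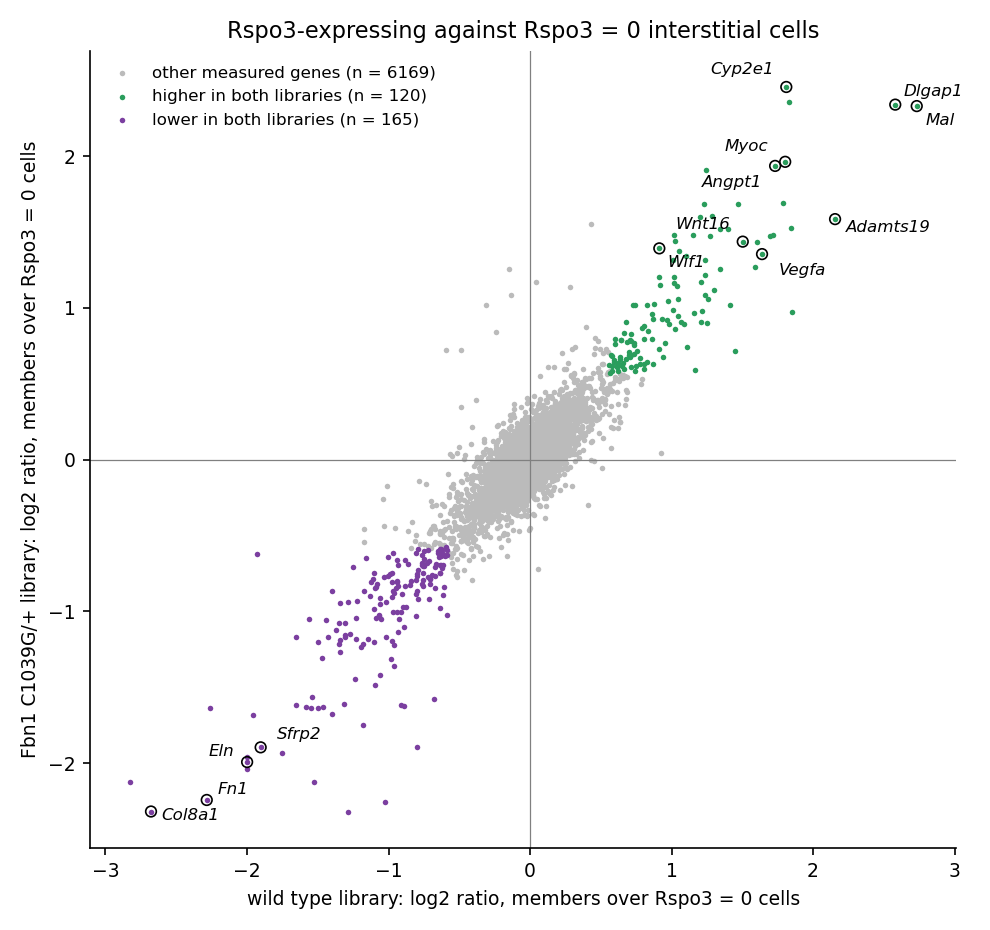
Each point is a measured gene, with its log2 ratio of members over Rspo3 = 0 cells in the wild type library on the x axis and in the Fbn1 C1039G/+ library on the y axis. The 120 genes higher in both libraries lie at the upper right, with Dlgap1, Mal and Cyp2e1 among the outermost, and the 165 lower in both lie at the lower left with Col8a1 and Fn1.

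The 5 genes given as markers of these cells were chosen with earlier results of these data known, so their ratios describe the members and check nothing. All 5 were higher in both libraries. Angpt1, angiopoietin-1, a ligand of the endothelial receptor Tek, stood at 133 and 159 CPM in members of the wild type and Fbn1 C1039G/+ libraries against 39.4 and 40.7 CPM in Rspo3 = 0 cells. Its ratios were 3.38-fold (3.16 to 3.62) and 3.89-fold (3.65 to 4.16). Cyp2e1, a cytochrome P450 that oxidises small molecules such as ethanol, stood at 172 and 154 CPM in members of the wild type and Fbn1 C1039G/+ libraries against 48.3 and 27.2 CPM in Rspo3 = 0 cells, ratios of 3.56-fold (3.35 to 3.79) and 5.65-fold (5.25 to 6.08). Myoc, which encodes the secreted protein myocilin known from the outflow tissue of the eye, stood at 352 and 224 CPM in members of the wild type and Fbn1 C1039G/+ libraries against 100.2 and 56.8 CPM in Rspo3 = 0 cells, ratios of 3.51-fold (3.37 to 3.67) and 3.95-fold (3.73 to 4.17). Vegfa, the main growth factor for blood vessel endothelium, stood at 107 and 50.0 CPM in members of the wild type and Fbn1 C1039G/+ libraries against 33.8 and 18.9 CPM in Rspo3 = 0 cells, ratios of 3.18-fold (2.95 to 3.43) and 2.64-fold (2.36 to 2.94). In each of the 5 genes both libraries' members were above both sets of Rspo3 = 0 cells. Wif1, a secreted protein that binds Wnt ligands, had the smallest ratios of the 5, 1.89-fold (1.85 to 1.92) and 2.63-fold (2.57 to 2.68), from 1371 and 1283 CPM in members of the wild type and Fbn1 C1039G/+ libraries against 727 and 488 CPM in Rspo3 = 0 cells.

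These markers were not present in every member. After thinning to 5000 UMIs, Angpt1 had a UMI in 39.1% and 40.9% of members, in 16.5% and 16.1% of Rspo3 = 0 cells and in 0.547% and 0.863% of macrophages. Cyp2e1 had one in 39.0% and 37.2% of members and 13.6% and 9.03% of Rspo3 = 0 cells. Wif1 was the most widespread, in 80.6% and 80.6% of members, but it was also seen in 56.0% and 47.1% of Rspo3 = 0 cells. Each of these markers was thus detected in some Rspo3 = 0 cells and missed in some members. Across 1058 and 784 thinned members, the rank correlation of Angpt1 with Wif1 was 0.26 and 0.28 and that of Cyp2e1 with Angpt1 was 0.21 and 0.29. These were the pairs with the highest value in whichever library was lower, and they are weak for sparse counts.

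The promoters of Cyp2e1 and Wif1 are shown because both genes were higher in members and hold one of the motifs searched for. Of the 15 genes with the largest ratios in members, 10 matched a RefSeq promoter (GRCm38.p6), and the 250 bases before the start site were searched on both strands for CTTTGAT (the motif of TCF/LEF factors), TGANTCA (AP-1) and ACGTG (the core of the hypoxia response element). The TCF/LEF and AP-1 letters were in none of the 10, against 3.23% and 6.87% of 27025 promoters of the same length. ACGTG was in 2 of the 10 (Cyp2e1 and Mcpt4), against 16.6% of all. It overlaps its own reverse complement in the 6 letters CACGTG, as in Wif1. Capitals mark ACGTG on either strand, in Cyp2e1 at chr7:140763569-140763818 and in Wif1 at chr10:121033754-121034003, both on the plus strand.
Cyp2e1: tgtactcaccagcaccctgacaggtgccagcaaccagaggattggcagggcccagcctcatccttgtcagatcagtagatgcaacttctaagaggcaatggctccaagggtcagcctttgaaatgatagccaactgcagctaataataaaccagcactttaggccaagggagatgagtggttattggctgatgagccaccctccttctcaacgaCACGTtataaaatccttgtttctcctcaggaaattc
Wif1: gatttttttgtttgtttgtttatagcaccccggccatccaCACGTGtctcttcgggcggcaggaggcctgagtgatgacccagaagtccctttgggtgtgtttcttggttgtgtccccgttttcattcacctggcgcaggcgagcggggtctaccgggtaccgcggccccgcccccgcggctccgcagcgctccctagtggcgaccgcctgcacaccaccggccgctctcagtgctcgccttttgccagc

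The other genes with the largest ratios have varied roles. Mal, a membrane protein of lipid rafts, stood at 94.1 and 68.8 CPM in members of the wild type and Fbn1 C1039G/+ libraries against 13.3 and 12.9 CPM in Rspo3 = 0 cells, ratios of 7.07-fold (6.39 to 7.83) and 5.34-fold (4.79 to 5.95). Dlgap1, a scaffold protein best known from synapses, had ratios of 7.10-fold (5.96 to 8.48) and 6.04-fold (5.01 to 7.27) at the lower level of 31.7 and 25.1 CPM in members. Adamts19, a secreted metalloprotease whose loss causes heart valve disease, had ratios of 4.58-fold (4.25 to 4.93) and 3.05-fold (2.84 to 3.29), from 130.4 and 115 CPM in members of the wild type and Fbn1 C1039G/+ libraries against 28.5 and 37.8 CPM in Rspo3 = 0 cells. Grin3a, a glutamate receptor subunit, stood at 55.7 and 50.7 CPM in members against 16.2 and 17.5 CPM, and Galnt14, a glycosyltransferase that starts mucin-type chains, at 23.1 and 23.3 CPM against 5.69 and 7.44 CPM. The transcription factor gene Hlf, a partner of clock output genes, stood at 84.8 and 63.0 CPM against 31.6 and 21.3 CPM. Nt5dc2 stood at 127 and 78.0 CPM against 38.5 and 27.5 CPM, Rgs7bp at 28.8 and 21.4 CPM against 7.62 and 5.93 CPM, Tmem82 at 27.3 and 23.3 CPM against 9.18 and 6.58 CPM and Fzd10os at 27.2 and 21.5 CPM against 8.27 and 7.31 CPM. Mcpt4, a protease gene of mast cells, stood at 32.1 and 32.6 CPM against 8.32 and 5.58 CPM, with UMIs in 12.3% and 13.2% of members, and 5 cells of each library held 22.5% and 20.6% of them.

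The genes of the Wnt pathway were counted by role, to be read beside the 1.86% higher and 2.56% lower of all genes. Among R-spondin ligands and receptors 0 of 4 measured genes were called in both libraries, among Wnt ligands 1 of 4 (Wnt16, higher), among secreted Wnt inhibitors 2 of 7 (Wif1 higher and Sfrp2 lower), among receptors and transducers 1 of 12 and among feedback targets 1 of 7, the same gene Lef1 in both of these lists. Wnt16, a ligand of the family, stood at 83.5 and 72.5 CPM in members of the wild type and Fbn1 C1039G/+ libraries against 28.8 and 26.2 CPM in Rspo3 = 0 cells, ratios of 2.90-fold (2.67 to 3.15) and 2.77-fold (2.53 to 3.04). Lef1, the DNA-binding partner of beta-catenin and itself a Wnt target, stood at 27.8 and 20.5 CPM in members of the wild type and Fbn1 C1039G/+ libraries against 7.01 and 9.92 CPM in Rspo3 = 0 cells, ratios of 3.98-fold (3.39 to 4.66) and 2.06-fold (1.74 to 2.43). Axin2, a target that limits the pathway, stood at 46.0 and 36.2 CPM against 36.7 and 34.0 CPM and was not called. The R-spondin receptor Lgr5 stood at 14.1 and 9.71 CPM in members against 6.87 and 5.24 CPM, and the ligase Rnf43 at 6.88 and 3.72 CPM against 1.77 and 0.877 CPM. Both were under the minimum for a measured gene. The other R-spondins, Rspo1 and Rspo2, were at or near 0, with Rspo1 at 0.336 and 0.103 CPM and Rspo2 without a UMI in members. Sfrp2, which binds Wnt ligands outside the cell, went the other way from Wif1, at 133 and 153 CPM in members of the wild type and Fbn1 C1039G/+ libraries against 500.1 and 572 CPM in Rspo3 = 0 cells, ratios of 0.266 (0.252 to 0.280) and 0.267 (0.254 to 0.282).

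In the list of vascular growth factors and receptors, 3 of 14 measured genes were higher (Vegfa, Angpt1 and Pgf) and 3 lower (Vegfc, Vegfd and Angptl7) in both libraries. Pgf, placental growth factor, stood at 28.2 and 23.6 CPM in members of the wild type and Fbn1 C1039G/+ libraries against 17.7 and 13.2 CPM in Rspo3 = 0 cells. Vegfd, a growth factor of lymphatic endothelium, stood at 36.7 and 36.4 CPM in members of the wild type and Fbn1 C1039G/+ libraries against 71.0 and 65.4 CPM in Rspo3 = 0 cells, and Vegfc, which acts on the same receptor, at 28.6 and 31.0 CPM against 44.3 and 48.2 CPM. None of 11 measured hypoxia and glycolysis genes was called, and the median log2 ratio of the list was -0.11 and -0.02. Hif1a stood at 125 and 158 CPM against 137 and 144 CPM.

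Other signalling genes split in both directions. In the BMP list 2 of 13 were higher, the ligand Bmp5 (25.5 and 21.1 CPM in members, ratios of 2.42 and 3.35) and the binding protein Bmper (96.5 and 119.6 CPM against 52.1 and 58.3 CPM), and 4 were lower, the ligand Bmp4 and the antagonists Chrdl1, Fst and Fstl3. In the IGF list Igf1 was higher, at 977 and 863 CPM in members of the wild type and Fbn1 C1039G/+ libraries against 646 and 552 CPM in Rspo3 = 0 cells, with Igfbp5 (381 and 385 CPM against 202 and 167 CPM), and Igfbp3 was lower. Aldh1a3, which makes retinoic acid, was higher, at 36.4 and 49.4 CPM against 21.4 and 23.9 CPM, the only 1 called of 7 retinoid genes. Clu, a secreted chaperone that restrains complement, was higher, at 694 and 1227 CPM in members of the wild type and Fbn1 C1039G/+ libraries against 323 and 483 CPM in Rspo3 = 0 cells, and the complement gene C3 lower, at 48.0 and 24.5 CPM against 144 and 51.7 CPM. Of 19 mesenchymal transcription factors, Msx1 was higher, at 110.5 and 81.4 CPM against 65.5 and 52.8 CPM, and Tcf21, Twist2 and Scx were lower.

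Lists of matrix genes held many of the genes that were lower in members. Over all 6454 genes the median log2 ratio was -0.00101 and 0.00497 in the 2 libraries. Collagens outside the rule were lower in 11 of 17 measured genes and higher in 0, with medians of -1.03 and -0.77. Col8a1, a short-chain collagen of vessel walls and valves, stood at 20.9 and 44.2 CPM in members of the wild type and Fbn1 C1039G/+ libraries against 139 and 225 CPM in Rspo3 = 0 cells, ratios of 0.150 (0.132 to 0.170) and 0.197 (0.178 to 0.217). Fibrillin and elastic fibre genes were lower in 8 of 17 and higher in 0, with medians of -0.62 and -0.58. Eln, elastin, stood at 84.5 and 88.6 CPM in members of the wild type and Fbn1 C1039G/+ libraries against 341 and 356 CPM in Rspo3 = 0 cells, ratios of 0.248 (0.232 to 0.264) and 0.249 (0.232 to 0.267). Fbn1, the gene that carries the C1039G allele, stood at 281 and 297 CPM in members of the wild type and Fbn1 C1039G/+ libraries against 504 and 517 CPM in Rspo3 = 0 cells, ratios of 0.558 (0.538 to 0.579) and 0.575 (0.553 to 0.598), and Lox, which crosslinks collagen and elastin, at 14.3 and 13.3 CPM against 34.9 and 31.5 CPM. Cartilage-type matrix genes were lower in 7 of 11, with medians of -1.06 and -0.85, among them Comp at 616 and 670.5 CPM against 1326 and 1324 CPM and Cilp at 117 and 81.3 CPM against 371 and 251 CPM. The rule itself used collagen and Dcn UMIs with a minimum, and those made up a median of 2.54% and 2.79% of a member's UMIs against 3.01% and 3.27% in Rspo3 = 0 cells.

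Fn1, fibronectin, was among the genes with the smallest ratios, at 26.5 and 57.2 CPM in members of the wild type and Fbn1 C1039G/+ libraries against 133 and 275 CPM in Rspo3 = 0 cells, ratios of 0.199 (0.177 to 0.223) and 0.208 (0.191 to 0.227). It was found in 10.4% and 19.4% of members, and 5 cells of each library held 41.5% and 40.8% of its member UMIs. Ccn5, a matricellular protein of the CCN family, stood at 46.7 and 45.1 CPM in members of the wild type and Fbn1 C1039G/+ libraries against 189.7 and 189 CPM in Rspo3 = 0 cells, and Tnc, tenascin-C, at 9.48 and 20.8 CPM against 39.7 and 68.7 CPM. Car3, a carbonic anhydrase, stood at 35.6 and 71.6 CPM against 174 and 225 CPM. Among TGF-beta genes, the latent binding protein gene Ltbp2 and the matricellular genes Ccn1 and Ccn2 were lower in both libraries, while the ligands Tgfb1, Tgfb2 and Tgfb3 were not called. Contractile genes were lower in 4 of 9, with Acta2, smooth muscle actin, at 177 and 188 CPM in members of the wild type and Fbn1 C1039G/+ libraries against 367 and 390.0 CPM in Rspo3 = 0 cells. Not all matrix genes were lower. Among 13 proteoglycan and hyaluronan genes, the hyaluronan synthase Has2 (40.8 and 35.6 CPM against 26.3 and 23.5 CPM) and the link protein Hapln1 (36.1 and 37.8 CPM against 18.7 and 22.5 CPM) were higher, and Aspn, Ogn, Fmod and Chad were lower. Cell cycle genes were lower in 2 of 4 measured, with Top2a at 13.9 and 4.96 CPM against 29.3 and 27.5 CPM.

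Smaller ratios were also found for Ccl5, Ndufa4l2 and Ms4a4d, each under 9 CPM in members of both libraries. Ccl5, a chemokine of T cells and macrophages, stood at 7.80 and 5.79 CPM against 61.5 and 28.6 CPM, and 5 cells held 67.7% and 78.6% of its member UMIs. Ndufa4l2 stood at 8.30 and 4.86 CPM against 36.2 and 21.8 CPM. It belongs with Notch3, Mcam, Rgs5 and Heyl to a gene set of another interstitial state, in which 2 of 3 measured genes were lower (Ndufa4l2 and Heyl) and Rgs5 was higher. Rgs5, a regulator of G protein signalling best known from pericytes, stood at 249.9 and 339 CPM in members of the wild type and Fbn1 C1039G/+ libraries against 112 and 121 CPM in Rspo3 = 0 cells. The potassium channel genes Kcnj8 (41.9 and 30.8 CPM against 23.2 and 19.3 CPM) and Abcc9 (75.7 and 58.0 CPM against 36.9 and 24.6 CPM), also used as pericyte markers, were higher too, while Pdgfrb stood at 169.8 and 165 CPM against 179.5 and 157 CPM. The summed level of the 8 mural markers was 550 and 603 CPM in members against 395 and 355 CPM, and 1 and 2 of the 8 had no UMI in members. Rgs5 had the highest level of the 8 in members, and Pdgfrb in Rspo3 = 0 cells. Notch3, Mcam, Myh11 and Higd1b together summed to less in members than in Rspo3 = 0 cells in both libraries. The part of mural RNA in these levels was not tested.

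**Figure D3:**
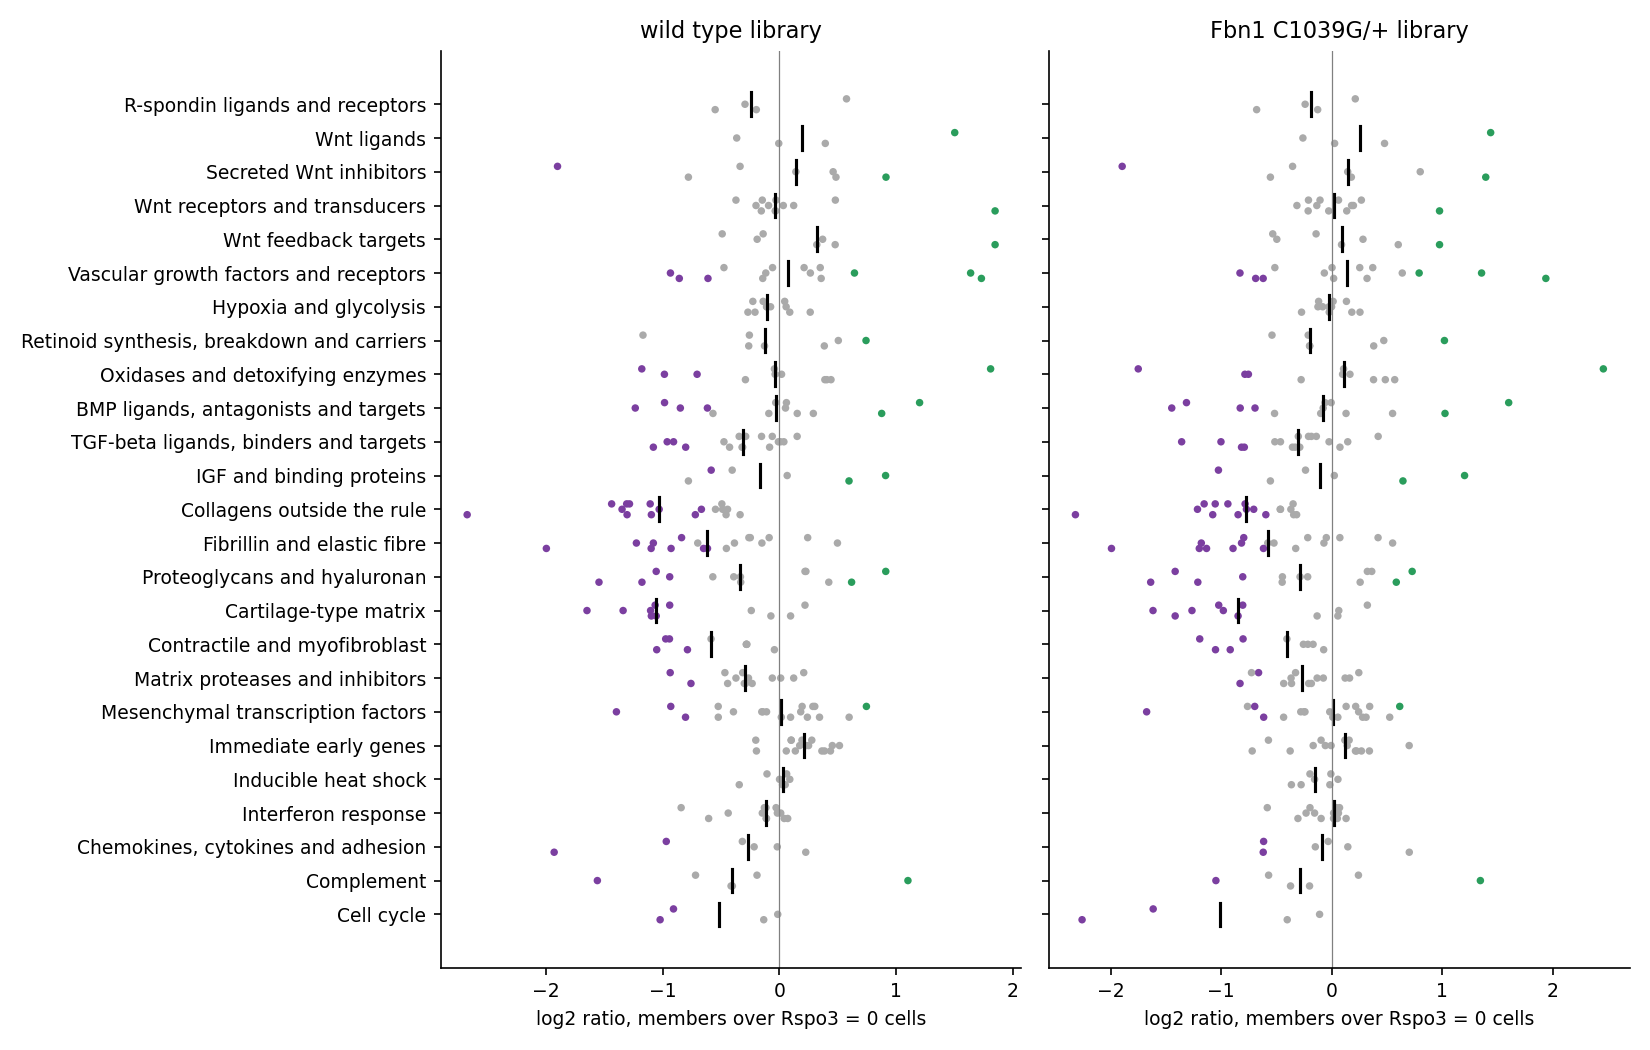
Each point is a measured gene of the list named at the left, placed by its log2 ratio of members over Rspo3 = 0 cells in each library, green or purple when called higher or lower in both libraries, and black bars are list medians. Collagens, elastic fibre and cartilage-type genes lie mostly left of 0, with medians of -1.03, -0.62 and -1.06 in the wild type, and the Wnt lists lie around 0 apart from single genes.

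The levels were also followed over the number of Rspo3 UMIs in a cell, with the Rspo3 = 0 cells here held to the same limit on Bglap2, Nrgn and Sez6l. Angpt1 was higher in each class than in the one before it in both libraries. It stood at 38.4 CPM at 0 Rspo3 UMIs, 82.7 CPM at 2, 97.2 CPM at 3 and 197 CPM at 10 or more in the wild type library. In the Fbn1 C1039G/+ library it stood at 39.7, 82.0, 112 and 327 CPM. Wif1 went from 715 to 1838 CPM and from 484 to 1863 CPM between the same ends. Vegfa differed between the libraries along this scale. It went from 31.6 to 187 CPM in the wild type and from 18.3 to 53.7 CPM at 3 and 50.8 CPM at 10 or more Rspo3 UMIs in the Fbn1 C1039G/+ library. Eln was already lower at 1 Rspo3 UMI than at 0, with 347, 184 and 47.9 CPM at 0, 1 and 10 or more in the wild type and 361, 151 and 69.4 CPM in the other library. The classes of 10 or more held 54 and 38 cells, whose median depths of 10884.5 and 12239 UMIs were the highest of the classes.

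**Figure D4:**
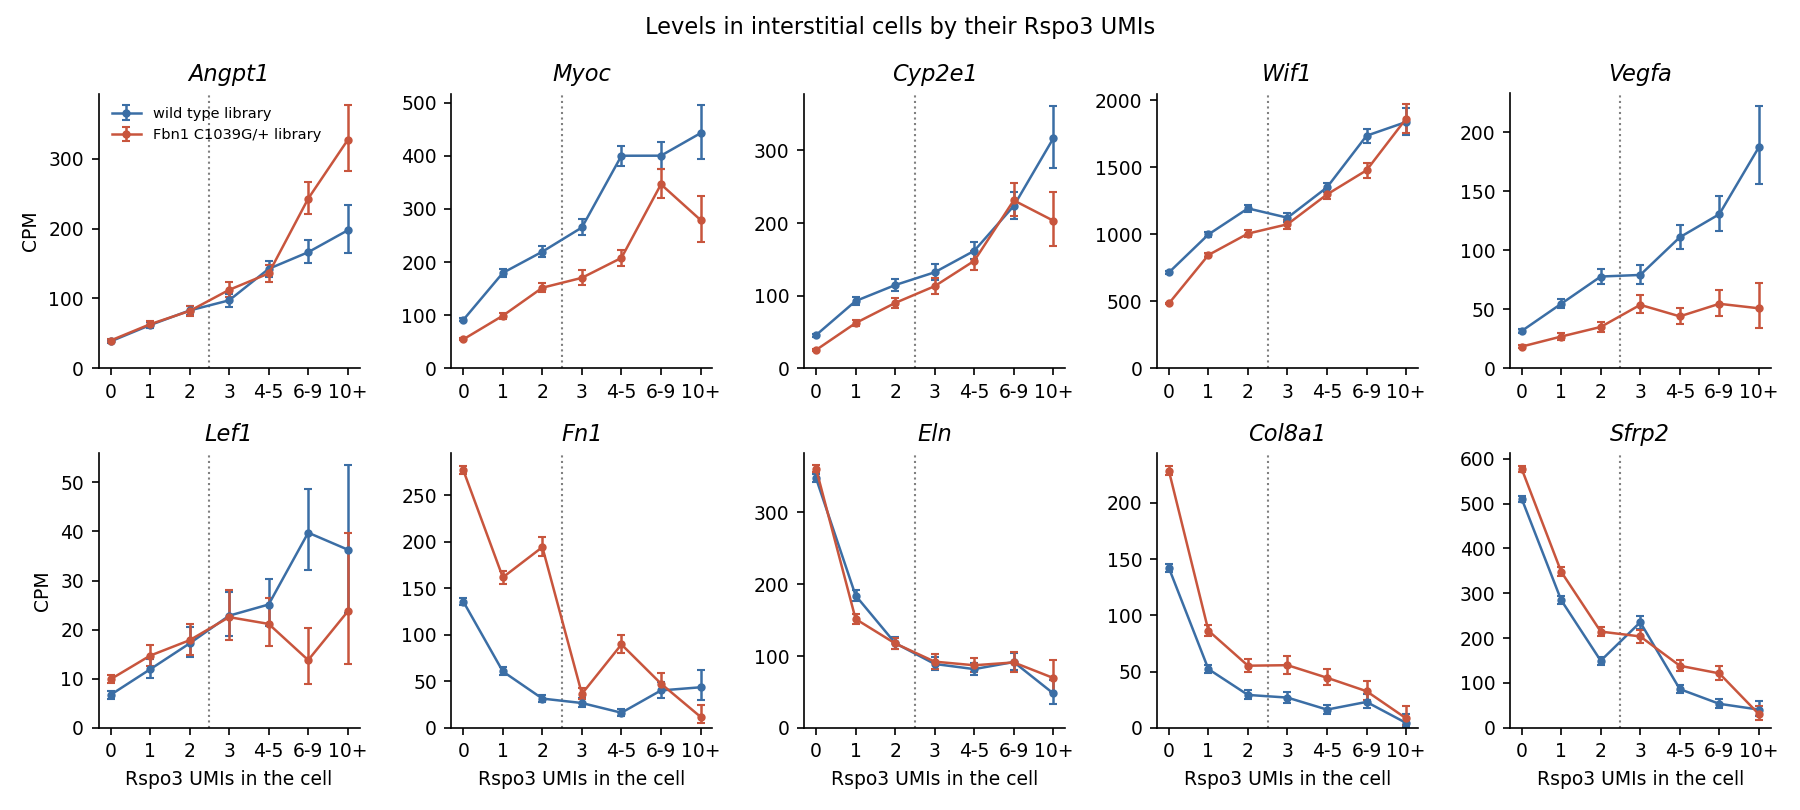
Summed levels (CPM, y axis) of 10 genes in interstitial cells grouped by their Rspo3 UMIs (x axis), with 95% Poisson intervals and the member threshold as a dotted line. Angpt1, Myoc, Cyp2e1 and Wif1 were higher in every class with Rspo3 than at 0 UMIs in both libraries, Vegfa reached 187 CPM in the wild type against 50.8 CPM, and Eln, Col8a1 and Sfrp2 were lower in every class with Rspo3 than at 0.

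The gate on Bglap2, Nrgn and Sez6l left out 313 and 142 interstitial cells with at least 3 Rspo3 UMIs. Of the markers, Angpt1, Myoc, Cyp2e1 and Vegfa were higher in these cells than in the members of both libraries. Myoc stood at 578 and 564 CPM in the cells left out, against 352 and 224 CPM in members, and Angpt1 at 207 and 226 CPM against 133 and 159 CPM. Wif1 was at 1344 and 1289 CPM, close to its level in members. Mal, Wnt16 and Mcpt4 were also higher in the cells left out than in members. Mal stood at 174 and 140 CPM against 94.1 and 68.8 CPM in members. Wnt16 stood at 169 and 122 CPM against 83.5 and 72.5 CPM, and Mcpt4 at 60.0 and 64.5 CPM against 32.1 and 32.6 CPM. Lef1 (42.1 and 23.8 CPM) and Bmp5 (44.2 and 29.1 CPM) were above their levels in members too. In the Fbn1 C1039G/+ library the intervals of Lef1 and Bmp5 overlapped those of members. Just inside the gate, at 5 UMIs of the 3 genes (45 and 21 cells), Angpt1 stood at 168 and 287 CPM, and just outside, at 6 UMIs (31 and 19 cells), at 231 and 218 CPM.

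The third comparison was between the libraries within the members. Of 6600 measured genes, 74 (1.12%) were called higher and 78 (1.18%) lower in the Fbn1 C1039G/+ members, and the median log2 ratio over all was 0.04. In Rspo3 = 0 cells 61 (0.928%) and 104 (1.58%) of 6570 genes were called. Of the genes called in members, 37 of 74 higher and 54 of 78 lower genes were also called in that direction in Rspo3 = 0 cells (37 of 61 and 54 of 104 of those cells' calls). Members themselves held slightly less Rspo3 in the Fbn1 C1039G/+ library, with a ratio of 0.895 (0.857 to 0.933), a value bounded from below by the rule.

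Of the markers, Vegfa and Myoc were lower in Fbn1 C1039G/+ members. Vegfa stood at 107 and 50.0 CPM in wild type and Fbn1 C1039G/+ members, for a library ratio of 0.466 (0.419 to 0.517), and its ratio was 0.561 (0.517 to 0.608) in Rspo3 = 0 cells. By sex the member ratio of Vegfa was 0.544 (0.467 to 0.633) in cells with Xist RNA and 0.386 (0.327 to 0.454) in cells with Y-linked RNA. Myoc stood at 352 and 224 CPM, for a library ratio of 0.637 (0.604 to 0.671), and its ratio was 0.567 (0.541 to 0.594) in Rspo3 = 0 cells. For Angpt1, Cyp2e1 and Wif1 the member ratios were 1.19, 0.895 and 0.936, none of them called. In Rspo3 = 0 cells the ratio of Cyp2e1 was 0.564 and that of Wif1 0.671, and their ratios of ratios were 1.59 (1.44 to 1.74) and 1.39 (1.35 to 1.43). Only the first of these reached 1.5-fold.

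Immediate early genes, which are switched on within minutes of a stimulus and also during tissue digestion, were the list with the most calls in this comparison. In members 12 of 16 measured genes were lower in the Fbn1 C1039G/+ library, with a list median log2 ratio of -1.28, and in Rspo3 = 0 cells 12 of 17 were lower, with a median of -0.996. Fos, a subunit of AP-1, stood at 1633 and 611 CPM in members, for a library ratio of 0.374 (0.363 to 0.385), and had UMIs in 92.5% and 82.6% of members. Gadd45b, a stress-response gene, stood at 141 and 17.8 CPM, for a library ratio of 0.126 (0.107 to 0.148), and was found in 45.4% and 13.5% of members. Its ratio in Rspo3 = 0 cells was 0.222 (0.210 to 0.234), with a ratio of ratios of 0.570 (0.483 to 0.673). Atf3, Ppp1r15a, Socs3 and Zfp36, regulators of stress, cytokine signals and RNA decay, had member ratios of 0.292, 0.296, 0.325 and 0.352. The neutrophil chemokine genes Cxcl1 and Cxcl2 stood at 34.3 and 5.27 CPM and at 57.0 and 5.48 CPM, and 5 cells held 63.5% and 90.6% of the Cxcl2 UMIs. The member ratio of Cxcl1 was 0.240 (0.154 to 0.362) in cells with Xist RNA and 0.114 (0.0702 to 0.177) in cells with Y-linked RNA, and that of Cxcl2 was 0.163 (0.119 to 0.220) and 0.0163 (0.00442 to 0.0423). Ccl4 had a ratio of 0.153 (0.101 to 0.225), with 83.0% and 90.0% of its UMIs in 5 cells. Ccdc3, a secreted protein of adipose and vascular tissue, stood at 48.7 and 17.3 CPM, for a library ratio of 0.354 (0.296 to 0.421). Whether handling of the 2 pools differed was not tested.

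Interferon-stimulated genes were higher in 5 of 15 measured genes and lower in 0 in Fbn1 C1039G/+ members, with a median of 0.49, beside 4 of 15 and 0.42 in Rspo3 = 0 cells. Bst2, a membrane protein that holds back budding viruses, stood at 162 and 380.4 CPM, for a library ratio of 2.35 (2.23 to 2.49), and was seen in 59.3% and 69.6% of members. Ifi44 had a ratio of 6.71 (4.77 to 9.66) and was seen in 2.43% and 10.8% of members. Ly6a, the stem cell antigen Sca-1, stood at 94.1 and 256 CPM, for a library ratio of 2.72 (2.53 to 2.92) in members and 1.73 (1.68 to 1.78) in Rspo3 = 0 cells. By sex the member ratio of Ly6a was 4.72 (4.18 to 5.35) in cells with Xist RNA and 2.02 (1.83 to 2.22) in cells with Y-linked RNA. Serpina3n, a secreted protease inhibitor, was at 31.0 and 80.8 CPM, Cda, cytidine deaminase, at 31.0 and 75.9 CPM and Selp, P-selectin, at 8.72 and 20.6 CPM. These 3 genes had ratios of 2.60, 2.45 and 2.36. Hspa1b, an inducible heat shock gene, stood at 13.6 and 31.0 CPM, for a library ratio of 2.28 (1.88 to 2.78). Collagens outside the rule were higher in 3 of 17 genes (Col5a3, Col8a1 and Col18a1) and lower in 0. Col8a1 stood at 20.9 and 44.2 CPM in members, for a library ratio of 2.12 (1.81 to 2.49) beside 1.61 (1.57 to 1.66) in Rspo3 = 0 cells. Fn1 stood at 26.5 and 57.2 CPM, for a library ratio of 2.16 (1.88 to 2.49).

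The 2 genes with the highest library ratios, H19 and Nts, were carried by a few cells. H19, an imprinted non-coding RNA, stood at 1.09 and 21.5 CPM, and 5 cells held 99.0% of its UMIs in the Fbn1 C1039G/+ members. Without the 5 highest cells of each group its log2 ratio was -0.47. Nts, neurotensin, stood at 4.61 and 42.5 CPM, with 99.5% of the UMIs in 5 cells, and its ratio was 255 (70.0 to 2109) in cells with Xist RNA and 0.0464 (0.00548 to 0.176) in cells with Y-linked RNA. Fst, follistatin, had a ratio of 2.54 (2.02 to 3.20) in all members, of 4.58 (3.39 to 6.27) in cells with Xist RNA and of 0.604 (0.370 to 0.966) in cells with Y-linked RNA, so its direction differed between the sexes of the pools. In all members 5 cells held 20.7% of the Fst UMIs in the wild type and 48.5% in the Fbn1 C1039G/+ library.

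**Figure D5:**
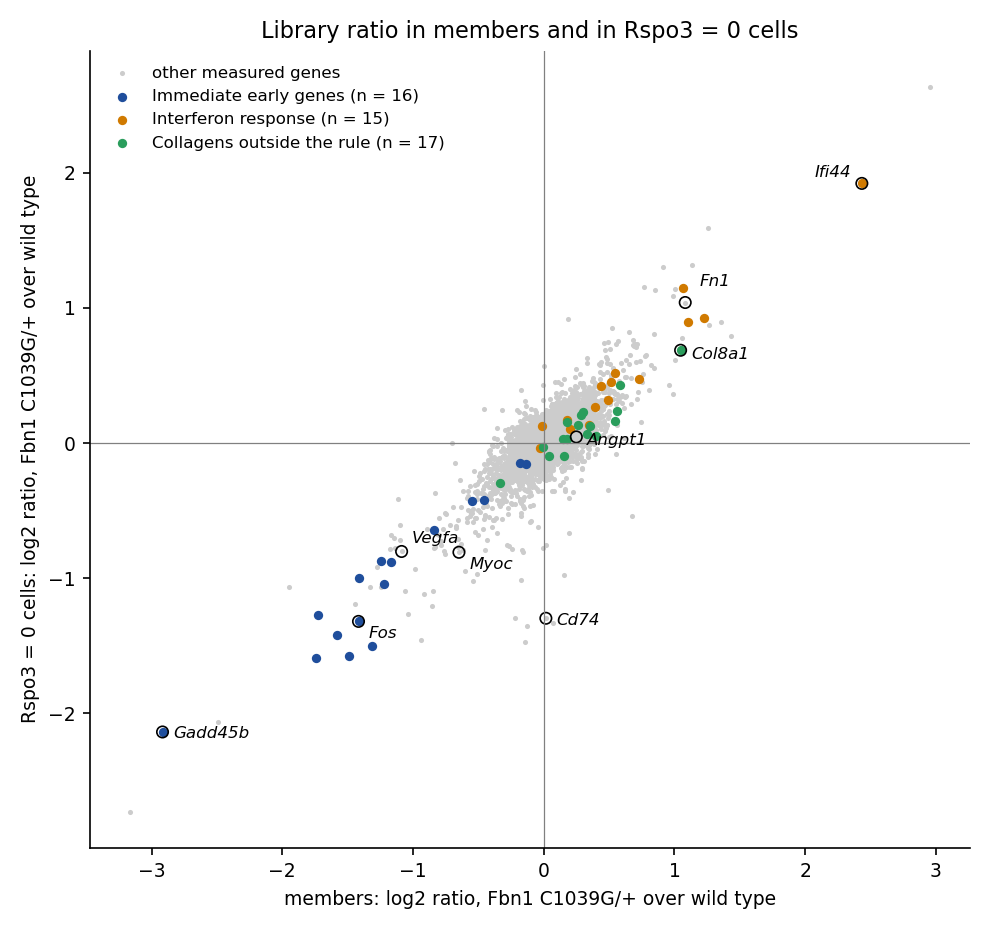
Each point is a gene measured in members and in Rspo3 = 0 cells, with its log2 ratio of the Fbn1 C1039G/+ over the wild type library in members (x axis) and in Rspo3 = 0 cells (y axis). Immediate early genes lie at the lower left, with list medians of -1.28 and -0.996, interferon genes mostly to the upper right, and Cd74 lies near 0 in members and well below 0 in Rspo3 = 0 cells.

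The last comparison asked for genes whose library ratio differed between members and Rspo3 = 0 cells. Of 6357 genes, 23 (0.362%) had a higher and 7 (0.11%) a lower ratio in members by the same 1.5-fold rule. This split was not stable, with 8 higher and 16 lower when each cell's CPM was averaged and 8 and 18 when high doublet scores were removed. Without cells that held 3 or more macrophage or endothelial marker UMIs the counts were 13 and 10. Of the 5 genes with the highest ratio of ratios, 4 encode MHC class II proteins and their partners, which present antigen on macrophages, dendritic cells and B cells. H2-Ab1 stood at 222 and 203 CPM in members and 244 and 94.9 CPM in Rspo3 = 0 cells, a ratio of ratios of 2.35 (2.19 to 2.51), and H2-Aa had 2.53 (2.35 to 2.73). Cd74, the invariant chain, stood at 422 and 427 CPM in members and 636 and 258 CPM in Rspo3 = 0 cells. The library ratio of Cd74 in members was 0.869 (0.823 to 0.918) in cells with Xist RNA and 1.25 (1.17 to 1.33) in cells with Y-linked RNA. H2-DMa had a ratio of ratios of 2.78 (2.33 to 3.33). Coro1a, an actin regulator of leukocytes, had 2.41 (1.97 to 2.94), and its log2 value was -1.21 without high doublet scores and -0.06 without cells that held 3 or more macrophage or endothelial marker UMIs. In members, 5 cells held 33.0% and 45.7% of the Cd74 UMIs. Macrophage markers moved the same way, from 839 to 564 CPM in Rspo3 = 0 cells and 533 and 556 CPM in members, and their part was not tested.

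On the lower side, Prss35, a secreted serine protease homologue and marker of another interstitial state, stood at 275 and 313 CPM in members and 100.2 and 190.1 CPM in Rspo3 = 0 cells. It was higher in members of both libraries, by 2.74-fold (2.62 to 2.87) and 1.65-fold (1.58 to 1.72), and the smaller ratio in the Fbn1 C1039G/+ library gave a ratio of ratios of 0.601 (0.566 to 0.639). The set of that state (Prss35, Vcan, Car3 and Postn) was split. Vcan also had a higher level in members of both libraries, and Car3 and Postn had lower levels. Summed, the set stood at 2741 and 3522 CPM in members against 2825 and 3869 CPM in Rspo3 = 0 cells. Cytl1, a secreted cytokine-like protein, stood at 256 and 187 CPM in members and 193 and 230.3 CPM in Rspo3 = 0 cells, a ratio of ratios of 0.610 (0.572 to 0.651). Its library ratio in members was 0.533 (0.491 to 0.578) in cells with Xist RNA and 1.27 (1.15 to 1.40) in cells with Y-linked RNA, so the direction differed between the sexes of the pools. Gata3, a transcription factor, stood at 36.7 and 16.4 CPM in members and 20.6 and 15.2 CPM in the other cells, with 0.607 (0.495 to 0.745). Stmn1, a tubulin regulator of dividing cells, had 0.605 (0.524 to 0.699). In wild type members 5 cells held 50.7% of its UMIs, and its direction turned in male cells (log2 0.08) and with at least 5 Rspo3 UMIs (log2 0.28).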

How the data were processed

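Libraries were made with the 10x Genomics 3′ version 3.1 kit, per the labels' protocols. The authors deposited raw UMI counts per gene and barcode on mm10. The submitters' processing notes name Cell Ranger 3.1.0 and the file headers 5.0.1, and which was run was not settled. Free RNA was not subtracted, since empty droplets were not used here. The members, gene lists, thresholds and alternatives were chosen with earlier results of these data known. Counts of Rspo3, Dcn, Col1a1, Col1a2, Col3a1, Bglap2, Nrgn and Sez6l were left out of all calls. Log2 ratios used a pseudocount of 1 CPM. Intervals were exact Poisson (levels), exact conditional binomial (ratios), exact Clopper-Pearson (shares), Newcombe (share differences) or from counts on the log scale (ratios of ratios). Macrophages were kept non-interstitial barcodes with at least 10 C1q UMIs. The text names the 15 called genes with the largest and 10 with the smallest ratios, ranked by the library with the weaker ratio, 10 each way between libraries, 5 each way by ratio of ratios, the markers and members of 25 gene lists. It leaves out mitochondrial, ribosomal protein, hemoglobin, immunoglobulin, T cell receptor and sex-linked marker genes and gene models. Names beyond that were chosen after their values were seen. Not every result under this rule is reported here. Doublets were scored with Scrublet in scanpy 1.11.5, whose automatic threshold called 0% and 0%, so 751 and 777 barcodes with the highest scores (7.61% and 7.80% expected) were removed only as an alternative. The call rule was tested on simulated counts with Poisson variation only. Those counts had no spread between cells, so they give no rate of false calls in these data. numpy 2.4.6, scipy 1.17.1 and pandas 2.3.3 were used, and 32235 of 32285 genes matched GENCODE M21.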

Additional observations from a re-analysis of the deposited data

Results flagged for a closer look

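For 9 of the named genes a pair of ratios had opposite signs and counting intervals that both excluded 1. These differences were not tested, and other named genes had opposite signs with at least 1 interval that included 1. Between members and Rspo3 = 0 cells the log2 ratio was -2.81 in the wild type and 1.16 in the Fbn1 C1039G/+ library for H19, -0.23 and 0.22 for Serpina3n, 0.41 and -0.75 for Ccl4, and 0.41 and -0.30 for Cytl1. For the antigen presentation genes it was -0.31 and 1.02 (H2-Aa), -0.59 and 0.72 (Cd74) and -0.14 and 1.09 (H2-Ab1), and for Coro1a -0.49 and 0.72.

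Between the libraries, Adamts19 had a log2 ratio of -0.18 in members and 0.40 in Rspo3 = 0 cells. The same values were 3.43 and -0.54 for H19, 0.68 and -0.54 for Coro1a, and -0.45 and 0.25 for Cytl1. The Cytl1 value in members was -0.90 in female and 0.34 in male cells, so its sign was that of the female cells.

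Cells with 3 or more Rspo3 UMIs were also found outside the members. The gate left out 313 wild type and 142 Fbn1 C1039G/+ interstitial cells, and 60 and 25 kept barcodes were outside the interstitial rule, with a median of 0.861% and 0.843% of UMIs from the 4 rule genes, just under the limit of 1%. Of these 60 and 25 barcodes, 31.7% and 32% held at least 3 endothelial marker UMIs.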

How the results depend on the processing

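No paired analysis was possible because each genotype had 1 library, and for the same reason no replicate could be left out. Of the 16 alternatives listed at the start, the member share was lower in the Fbn1 C1039G/+ library under each of those that could change it. The share in the wild type and Fbn1 C1039G/+ libraries, with the difference, was 23.6%, 18.1% and -5.47 points at 2 Rspo3 UMIs, 5.23%, 3.87% and -1.35 points at 5, and 6.38%, 4.65% and -1.74 points after thinning. It was 13.1% and 8.76% in female cells, 15.1% and 12.1% in male cells, and 13.3% in the wild type with an interstitial minimum of 2%. Counts are given below as members over Rspo3 = 0 cells (higher, lower), libraries within members (higher, lower) and ratio of ratios (higher, lower). They were 120, 165, 74, 78, 23 and 7 as reported. Without a filter on low levels they were 318, 523, 418, 456, 421 and 245, at a minimum of 100 CPM 26, 60, 13, 26, 7 and 3, and with a 2-fold rule 43, 56, 19, 34, 7 and 0. After thinning they were 154, 251, 231, 162, 132 and 94. A minimum of 5 Rspo3 UMIs moved the library counts to 154 and 124 and the ratio of ratios to 77 and 39. In female cells the library count of higher genes was 122 and the ratio of ratios gave 60 and 22. In male cells the count of lower genes between libraries was 124 and the ratio of ratios gave 49 and 36. The ratio of ratios gave 8 and 16 with the mean of each cell's CPM and 8 and 18 without the highest doublet scores. It gave 13 higher without cells holding macrophage or endothelial transcripts. Counts not given here stayed within 1.5 times of the reported ones. The pseudocount does not enter the calls.

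For the 54 ratios between members and Rspo3 = 0 cells that were rerun (the genes named by this comparison and Wif1 and Vegfa, in each library), none changed sign in 702 values over 13 settings, nor in 108 values of 2 settings chosen after seeing the data (the gate applied to Rspo3 = 0 cells too, and each gene without its 5 highest cells). Of 260 library ratios, 7 changed sign. These were H19 (-0.68) and Nts (-0.0486) with an interstitial minimum of 2%, H19 (-0.84) and Nts (-0.0555) without cells holding macrophage or endothelial transcripts, Nts (-2.94) and Fst (-0.65) in male cells, and Fst (-0.33) after thinning. H19 also turned without its 5 highest cells (-0.47). Of 130 log2 ratios of ratios, 4 turned. Coro1a turned without the highest doublet scores (-1.21) and without other cell transcripts (-0.0618). Stmn1 turned at 5 Rspo3 UMIs (0.28) and in male cells (0.0751). Without the 5 highest cells, Fst (0.67) and Coro1a (0.89) kept their sign. Nts went from 2.95 to 0.0488. The 5 highest cells had held 96.4% and 99.5% of the Nts UMIs, so few were left and that sign says little. The cause of these changes was not tested. The depth limits genes under 20 CPM, where 1 cell can hold much of the signal.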

Other observations

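Some genes varied widely among the members. In the wild type and Fbn1 C1039G/+ libraries the ratio of the variance to the mean over members was highest for Mgp, a calcification inhibitor of cartilage and vessels, at 64.9 and 71.6. It was 40.7 and 53.0 for Cd74, 36.4 and 41.7 for the nuclear RNA Malat1, 34.2 and 36.6 for Apoe, 23.0 and 27.2 for the actin-severing protein gene Gsn, 22.9 and 16.4 for the lubricin gene Prg4, and 13.9 and 14.4 for Comp. The macrophage genes Lyz2 and C1qa stood at 17.7 and 21.2 and at 21.1 and 17.1. This ratio tends to be larger for genes with a higher mean.

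Hbb-bs, a hemoglobin gene, had UMIs in 26.6% and 26.2% of members, but 5 cells of each library held 97.1% and 95.3% of them.

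Lists for other interstitial states were counted in the same way. All 5 genes of the cartilage-like set (Chad, Cilp2, Thbs4, Comp and Fmod) were lower in members of both libraries, 2 of 3 genes of the Pappa2 set were lower, and none of the 4 genes of the interferon set was called. Tesc, a calcium-binding protein, was higher, at 133 and 115 CPM in members of the wild type and Fbn1 C1039G/+ libraries against 43.3 and 47.0 CPM in Rspo3 = 0 cells. The other gene of its set, Cspg4, had a lower level in members than in Rspo3 = 0 cells in both libraries.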
